A study of Homo sapiens with 7 samples.

Results

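CTCF and cohesin fold the genome, and the CTCF peaks at the 10 genes that encode CTCF and the main subunits and regulators of cohesin are described here in K562 cells. The genes were listed by name from the 20163 protein-coding genes of the GENCODE annotation of GRCh37, the sequence of hg19. No measured value entered the rule, although earlier results of these data were known when the genes were chosen. They encode CTCF, the cohesin subunits SMC1A, SMC3, RAD21, STAG1 and STAG2, the loading factor NIPBL, the release factor WAPL, and the regulators PDS5A and PDS5B. A peak was assigned to a gene when it overlapped the gene or lay within 20 kb of either end. This gave 32 peaks in control cells and 22 peaks in PDS-treated cells, of 33094 and 32917 peaks in all.

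K562 is an established human erythroleukemia line, and PDS (pyridostatin) is a small molecule that stabilizes folded G-quadruplexes (G4s). Of the 7 samples, 2 CTCF and 1 IgG immunoprecipitates came from untreated cells (control), and 2 CTCF and 2 IgG immunoprecipitates came from cells given 10 μM PDS for 24 h. The labels name 1 peak list for all samples of a condition, so each peak has 1 pooled fold enrichment and 1 p-value per condition, with no value per sample and no replicate error. The lists hold no read counts, so the depth is unknown and no test between control and PDS was possible. Intervals given below are Wilson 95% intervals of a share and cover counting error only. Because each fold is taken as relative to the IgG of its own condition, the size of a fold was not compared between the lists, and the place of a peak within its list was used instead. A rank of 1 denotes the strongest peak of a list. At the gene pair CDKN2A and CDKN2B and at the adjacent MTAP, a region known to be deleted in K562, neither list held a peak inside the genes.

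Cohesin is a ring formed by SMC1A, SMC3 and RAD21, to which either STAG1 or STAG2 binds. NIPBL stimulates the loading of the ring and its ATP-driven extrusion of DNA loops, WAPL opens the ring to release it from chromatin, and PDS5A and PDS5B act with WAPL or hold cohesin at CTCF sites. CTCF is a zinc finger protein that recognizes a long motif in DNA and stops extruding cohesin, which places loop anchors and domain borders at its sites.

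The sequences that recur in the results are of 2 kinds. The first are matches to the CTCF consensus, a ChIP-exo consensus of 15 bp searched on both strands with 11 fixed positions. The list of control peaks held 4 such sites at these genes and the list of PDS peaks held the same 4 sites, each shown with its core in capitals and 7 flanking bases (hg19, 5′ to 3′ on the strand given).
CTCF, upstream in RIPOR1, chr16:67581042-67581070, plus strand: cttctgcCCACCAGGGGGCAGCagatccg
STAG1, gene start, chr3:136471239-136471267, minus strand: accgcggCCAGCAGAGGGCGGTccggacc
STAG1, intron 22, chr3:136110634-136110662, plus strand: aggaccaGCACTAGGGGGCACTggagcaa
STAG2, far 3′ part, chrX:123522604-123522632, plus strand: tgaatgaCCACCAGATGGCAGTgtggggc
The start peaks with the highest folds, those of PDS5B and STAG2, had no such match but a site that differed from the consensus at 1 fixed position.
PDS5B, gene start, chr13:33160486-33160514, plus strand: cgtctggTCGGCAGGGGGCGCTgcgcacc
STAG2, after the gene start, chrX:123094366-123094394, plus strand: ttcgtggCCGACAGATGGCGCCtgcgcgt

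The second kind are G4 motifs, defined on both strands as 4 G runs, each of 3 G or more, separated by 1 to 7 nt. Those inside peaks near the gene starts are shown with the G runs in capitals, since folding of such runs is what PDS stabilizes.
CTCF, first bases of the gene, chr16:67596370-67596394, minus strand: GGGacGGGtGGGGGGaccggccGGG
CTCF, intron 1, chr16:67596802-67596829, minus strand: GGGcgtGGGGGtGGGGGGGGcggccGGG
CTCF, intron 1, chr16:67596831-67596845, minus strand: GGGcGGGcGGGcGGG
STAG2, after the gene start, chrX:123094281-123094296, plus strand: GGGtGGGaGGGctGGG
PDS5A, intron 1, chr4:39978596-39978619, minus strand: GGGGactggccGGGcGGGactGGG
PDS5A, intron 1, chr4:39978391-39978416, minus strand: GGGccGGGttggcGGGGccggcGGGG
PDS5B, intron 1, chr13:33161259-33161277, plus strand: GGGcgaGGGGcGGGcGGGG
At STAG2, PDS5A and PDS5B the motifs were on the strand of the gene, and the 3 motifs at the CTCF start were on the opposite strand. A match is a description of the letters and does not show that the DNA was folded.

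Of the 10 genes, 9 had a CTCF peak in each list, and WAPL had none. Over all protein-coding genes, 77.2% had a control peak and 73.6% a PDS peak in the gene or within 20 kb. CTCF, STAG2, NIPBL and PDS5B had the most control peaks, 5 or 6 each, whereas SMC1A and RAD21 had 1 each. In PDS-treated cells CTCF and STAG2 had 5 peaks each, and NIPBL had 1 against 5 in control. The STAG2 counts rest on the long annotated gene, since its canonical transcript with 20 kb on either side had 1 peak in each list. The genes are long, with a median of 120.8 kb against 27.2 kb for all protein-coding genes, and the number of peaks per length varied among them. The median was 1.32 control and 0.929 PDS peaks per 100 kb of the gene with its 20 kb on either side, against 2.06 and 1.95 over all protein-coding genes. CTCF, SMC3, NIPBL and PDS5B were above the control median of all genes, with 4.28, 3.83, 2.18 and 2.16 control peaks per 100 kb. In PDS the genes above the median of all genes were CTCF, SMC3 and SMC1A, with 4.28, 2.55 and 2.26, while NIPBL and PDS5B had 0.435 and 0.864.

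**Figure D1:**
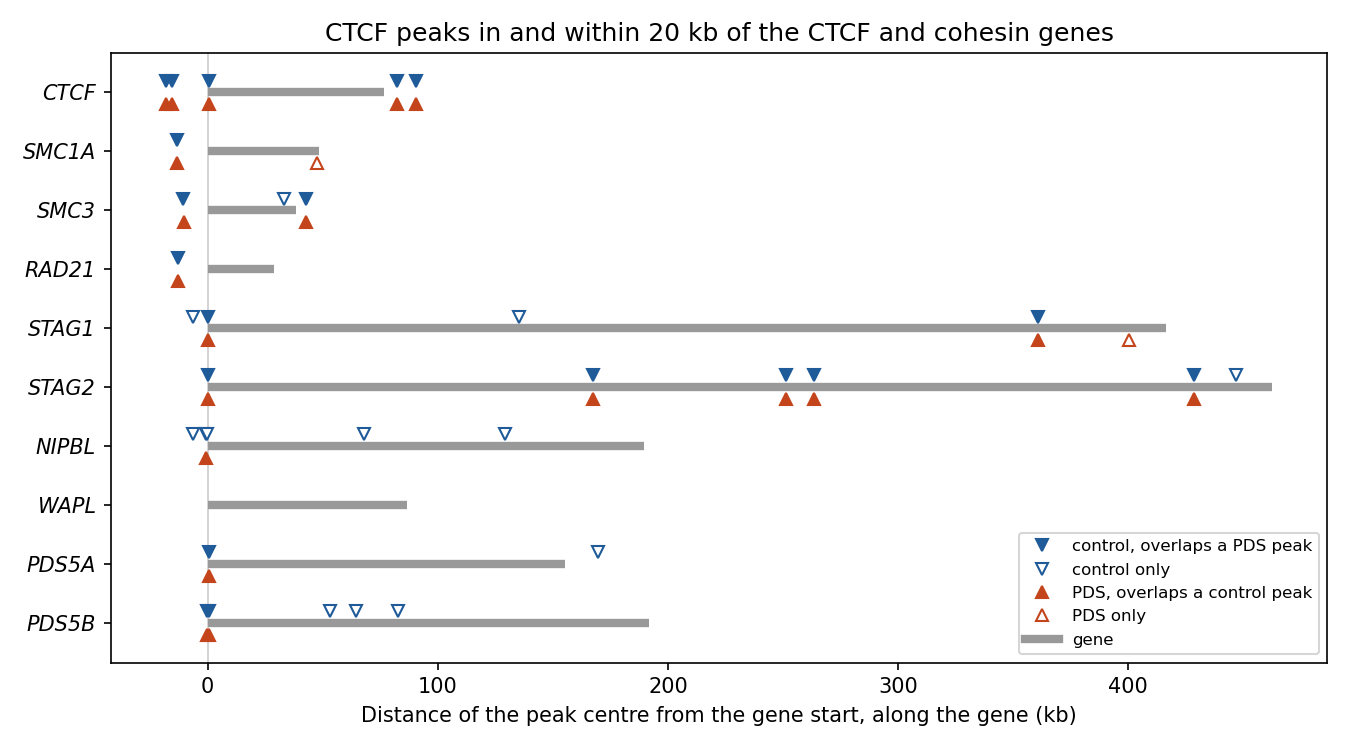
Position of every CTCF peak in and within 20 kb of the 10 genes. The x axis is the distance of the peak centre from the gene start in kb, in the direction of transcription, grey bars are the genes, blue triangles above them are control peaks and red triangles below them PDS peaks, and open triangles are peaks that overlap no peak of the other list. Of the 14 open triangles, 12 are control peaks, with 4 at NIPBL and 3 at PDS5B.

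At most of these genes a peak lay at or beside the start. Within 1 kb of the annotated gene start, 6 of the 10 genes had a peak in each list, namely CTCF, STAG1, STAG2, NIPBL, PDS5A and PDS5B, against 22.2% of protein-coding genes in control and 20.9% in PDS. The gene start itself was covered by a peak at 4 genes in control (CTCF, STAG1, PDS5A and PDS5B) and at 3 genes in PDS (STAG1, PDS5A and PDS5B), against 9.10% and 8.08% of protein-coding genes. The difference of 1 gene came from CTCF, whose PDS peak began 31 bp after the start, less than the 50 bp step of PDS positions. When the start of any annotated transcript was accepted, 5 genes had a covered start in each list, STAG2 and CTCF included, against 16.0% of protein-coding genes in control and 14.7% in PDS. None of SMC1A, SMC3, RAD21 and WAPL had a peak within 1 kb of its start. The genes were not matched to other genes for length or expression, so these shares are a description.

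**Figure D2:**
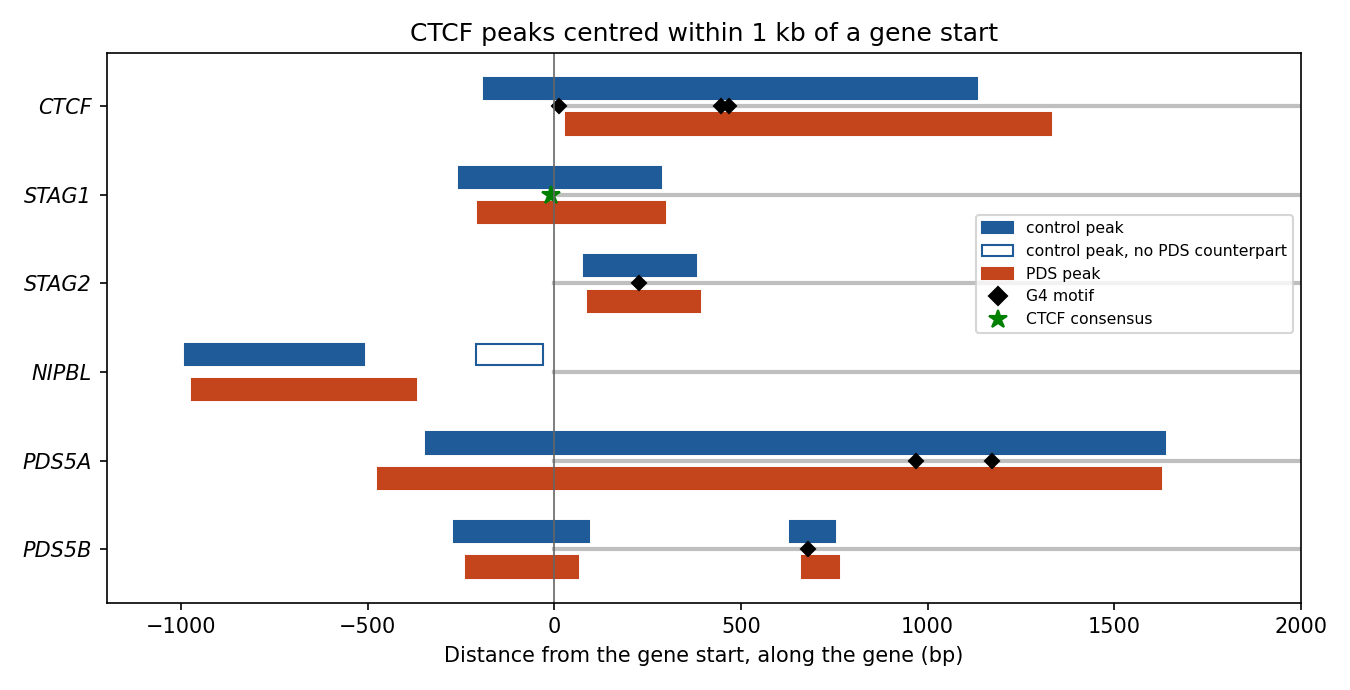
CTCF peaks centred within 1 kb of the starts of 6 genes. The x axis is the distance from the annotated gene start in bp along the gene. Bars span the peaks from their first to their last base (blue, control; red, PDS; open, control peak without a PDS counterpart). Diamonds mark G4 motifs in the peaks and the star marks the CTCF consensus match. Motifs outside the peaks are not drawn. The shared start peaks of STAG1 and NIPBL held none but had 2 within 1 kb. The STAG1 match lies 8 bp before the start, and the PDS peak at CTCF excludes the first of the 3 G4 motifs.

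CTCF (chr16:67596370-67673080, plus strand) had 5 peaks in each list, and each of them had a counterpart in the other list. Its start peak at chr16:67596181-67597500 in control was 1320 bp wide, extended to 1130 bp after the start, and had a fold of 43.0 (rank 5857). The PDS counterpart at chr16:67596401-67597700 had a fold of 10.8 (rank 27203). By p-value the same pair stood at rank 3310 in control and 588 in PDS, so the orderings by fold and by p moved in opposite directions. The start of CTCF-DT, a divergent long noncoding RNA, is 158 bp from that of CTCF, and the control peak overlapped this gene as well. The control peak held 3 G4 motifs and the PDS peak the 2 motifs of intron 1. The other motif ended before the PDS peak by less than the 50 bp step of PDS positions.

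The other peaks at CTCF lay outside the gene. In RIPOR1, upstream, a peak of 960 bp in control and 1250 bp in PDS contained the consensus match shown above, about 15 kb before the CTCF start. Its fold was 24.7 (rank 18619) in control and 25.8 (rank 5275) in PDS. A narrow peak further upstream had the lowest place of the 5 in control (fold 8.74, rank 31197) and a middle place in PDS (fold 16.6, rank 16689). Downstream, in CARMIL2, a peak of 720 bp in control and 700 bp in PDS held 4 G4 motifs in both lists. Its fold was 52.1 (rank 3417) in control and 21.9 (rank 8726) in PDS. The last peak, also in CARMIL2, had a fold of 22.8 in control and 12.1 in PDS. A G4 motif that straddled the edge of the control peak lay outside the PDS peak, which began 30 bp later. That is less than the steps of 60 bp in control and 50 bp in PDS in which positions advanced.

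None of the 3 genes of the cohesin ring had a peak at the start. SMC1A (chrX:53401070-53449677, minus strand), whose start is 38 bp from that of the divergent gene RIBC1, had a shared peak about 13 kb upstream with a fold of 38.2 (rank 7812) in control and 23.3 (rank 7324) in PDS. This pair kept nearly the same place in both lists. A second SMC1A peak at chrX:53402101-53402250 occurred only in PDS (fold 14.8, rank 20447) and lay in the untranslated part of the last exon, exon 25.

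SMC3 (chr10:112327442-112365806, plus strand) had shared peaks on either side of the gene. The downstream peak at chr10:112370041-112370460 had a fold of 51.8 (rank 3485) in control and 14.3 (rank 21620) in PDS. The upstream peak moved the other way, with a fold of 15.9 (rank 26664) in control and 21.7 (rank 9016) in PDS. A peak of 120 bp in intron 22 was called in control alone, with a fold of 22.3. RAD21, the kleisin that closes the ring (chr8:117858173-117887015, minus strand), had 1 shared peak about 12.5 kb upstream, at chr8:117899521-117900120 in control, with a fold of 29.5 (rank 13624) in control and 19.5 (rank 11809) in PDS. Its peaks held no G4 motif and no exact consensus match, but each held 1 site with 1 mismatch.

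The genes of the alternative subunits STAG1 and STAG2 both had a start peak in both lists. At STAG1 (chr3:136055078-136471245, minus strand) the start peak at chr3:136470961-136471500 had a fold of 54.0 (rank 3035) in control and its counterpart a fold of 17.5 (rank 14980) in PDS. The consensus match was centred 8 bp before the gene start, on the strand of the gene, and was the only exact match in a start peak among the 10 genes. By p-value the pair stood at 9.58% and 11.3% from the top of its list. A second shared peak with a consensus match lay in intron 22, at rank 27501 in control and 23077 in PDS by fold. Peaks at intron 3 (fold 30.9) and upstream of the gene (fold 13.0) occurred in control alone, and a peak of 100 bp in intron 28 occurred in PDS alone (fold 13.8).

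STAG2 had the PDS peak with the highest fold of all 10 genes. The annotated gene (chrX:123094062-123556514, plus strand) is longer than its Ensembl canonical transcript, which starts 1494 bp after the gene start and spans 141 kb of the 462.5 kb, and none of the STAG2 peaks overlapped that transcript. The peak just after the gene start, at chrX:123094141-123094440 in control and chrX:123094151-123094450 in PDS, had a fold of 113.5 (rank 135) and 105.9 (rank 5). By p-value it stood at 1.70% from the top of the control list and 15.4% from the top of the PDS list, again in the direction opposite to that of the fold. It held the G4 motif and the near-consensus site shown above, whose centres were 227 and 318 bp after the gene start. The other 4 shared peaks lay beyond the end of the canonical transcript, at 24915 to 286045 bp from it, with folds of 16.6 to 28.8 in control and 13.3 to 18.6 in PDS. A control-only peak (fold 39.3, rank 7308) lay in the stretch where STAG2 overlaps TENM1. It had the highest fold among the peaks called in control alone at these genes.

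NIPBL (chr5:36876871-37066515, plus strand) differed most in number between the lists, with 5 control peaks and 1 PDS peak. The shared peak lay 511 to 990 bp before the start in control, inside the divergent NIPBL-DT, with a fold of 39.5 (rank 7238) in control and 12.2 (rank 25148) in PDS. By p-value its rank was 7012 and 7353. A narrower control peak of 180 bp, from 210 to 31 bp before the start, had no PDS counterpart (fold 17.2). The PDS peak ended 161 bp from it. The remaining control-only peaks were upstream (fold 18.9), in intron 1 (fold 11.3) and in intron 16 (fold 7.51). These 3 peaks were 480 to 780 bp wide and poor in G and C, with 29.8% to 34.1% GC against a median of 51% over all control peaks.

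WAPL (chr10:88195013-88281549, minus strand) had no peak in the gene or within 20 kb in either list, and the nearest peak was 35093 bp away in control and 35113 bp in PDS. Of all protein-coding genes, 21.2% had no peak in either list, and of the 4215 genes at least as long as WAPL 12.4% had none. With an unknown depth, the absence of a called peak does not show that CTCF was absent.

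The PDS5 genes had a start peak in both lists. At PDS5A (chr4:39824483-39979576, minus strand) it was the widest peak of the 10 genes, with 1980 bp in control and 2100 bp in PDS, and held 2 G4 motifs in intron 1. Its fold was 36.5 (rank 8674) in control and 17.0 (rank 15930) in PDS, and by p-value it stood at rank 1052 and 1161. The only other PDS5A peak, downstream of the gene, was called in control alone (fold 28.0).

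PDS5B (chr13:33160589-33352157, plus strand) had the highest fold of all control peaks at the 10 genes. The peak at chr13:33160321-33160680, centred 88 bp before the start, had a fold of 136.9 (rank 48) in control and 26.2 (rank 5008) in PDS. By p-value it stood at rank 4621 and 2770. The near-consensus site shown above was centred 89 bp before the gene start, within 1 bp of the centre of both peaks. A second, narrow pair in intron 1 held 1 G4 motif and had low folds, 14.9 in control and 9.50 in PDS. Peaks in intron 1, intron 2 and intron 7, with folds of 24.3, 15.1 and 23.1, were called in control alone.

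Sharing between the lists was unequal. Of the 32 control peaks 20 overlapped a PDS peak, or 62.5% (45.3% to 77.1%), against 78.0% of all control peaks. Of the 22 PDS peaks 20 overlapped a control peak, or 90.9% (72.2% to 97.5%), against 78.6% of all PDS peaks. The remaining 12 control peaks were concentrated at NIPBL, with 4, and PDS5B, with 3. STAG1 had 2, and SMC3, STAG2 and PDS5A had 1 each. The 2 PDS-only peaks lay at SMC1A and STAG1. For the control share the list value was just above the upper limit of the interval, and for the PDS share it was inside the interval. The lower control share was not present when only the stronger 50% of each list by p-value were overlapped with each other. There 12 of 13 control peaks (92.3%) overlapped a PDS peak of the stronger 50%, against 82.9% over the list. The list share is higher when weaker PDS peaks also count, and the 92.3% was not compared with it.

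The peaks called in control alone were weak by p-value. Of the 12, 11 were weaker than the control median by p-value, as were 8 of the 20 shared peaks. Over the whole control list 88.5% of control-only and 39.2% of shared peaks were. Their median width was 180 bp against 360 bp for the shared ones, and their median fold 20.6 against 29.2. Over the whole control list the median width was 180 bp for control-only and 420 bp for shared peaks, and the median fold 20.9 and 29.0. None held a G4 motif or an exact consensus match, and 10 of the 12 held a site with at most 1 mismatch. Of the 20 shared control peaks 6, 4 and 15 did, respectively. Over the whole control list the shares were 5.34%, 11.1% and 37.7% of control-only peaks and 19.0%, 19.3% and 60.3% of shared peaks. For 11 of the 12 the nearest PDS peak was more than 1 kb away, and the median distance was 57.9 kb. Over all control-only peaks 77.1% were this far from a PDS peak, with a median distance of 16.4 kb. Both PDS-only peaks were narrow as well, at 100 and 150 bp, and below the median of their list by p-value. Of all PDS-only peaks, 98.9% were below that median, and their median width was 100 bp.

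**Figure D3:**
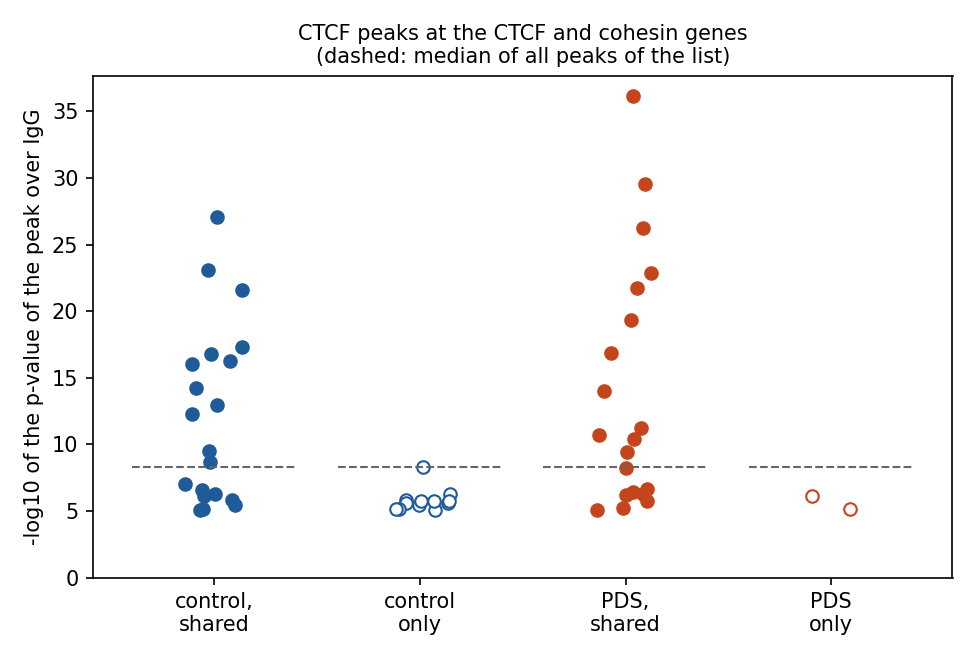
Strength of the CTCF peaks by p-value and sharing. The y axis is −log10 of the p-value of each peak over IgG, points are single peaks at the 10 genes (filled, overlapping a peak of the other list; open, in 1 list only; spread sideways for visibility), and dashed lines are the medians of all peaks of the same list. Of the 12 control-only peaks 11 lie below the control median, and both PDS-only peaks lie below the PDS median.

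The 20 shared peaks occupied nearly the same positions in both lists. Their centres were a median of 17.5 bp apart, against 40 bp over all 24633 pairs of 1 control and 1 PDS peak, and 16 of the 20 (80%) were within 60 bp, against 60.8% of all pairs. The largest offset, 210 bp, was at the CTCF start. In the order by fold, 10 pairs stood higher and 10 lower in PDS than in control. By p-value 9 stood higher and 11 lower. Over all pairs, 12652 stood higher and 11981 lower in PDS by fold, and 13879 higher and 10754 lower by p-value. The orderings by fold and p-value moved in opposite directions at 11 of the 20 pairs (55%), against 62.2% of all pairs. The median move was 17.5 percentage points by fold and 4.32 by p-value, against 19.7 and 10.8 over all pairs.

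Pairs at the gene starts mostly stood lower by fold in PDS. Of the 7 pairs centred within 1 kb of a start, 6 stood lower in the PDS list and the STAG2 pair stood higher. The median move was 22.2 percentage points down the list, against 11.7 over all pairs this close to a protein-coding gene start. Of the 13 other pairs, 4 stood lower and 9 higher. A pair at the start of a neighbouring gene would be among these 13, whereas the list values count any protein-coding gene start. The same split was present in the whole lists, where 69.3% of the 3227 pairs within 1 kb of a protein-coding gene start and 45.5% of the 21406 other pairs stood lower by fold in PDS. By p-value 3 of the 7 start pairs stood higher in PDS and 4 lower, so the downward move depended on the measure. Over all start pairs 62.4% stood higher by p-value.

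**Figure D4:**
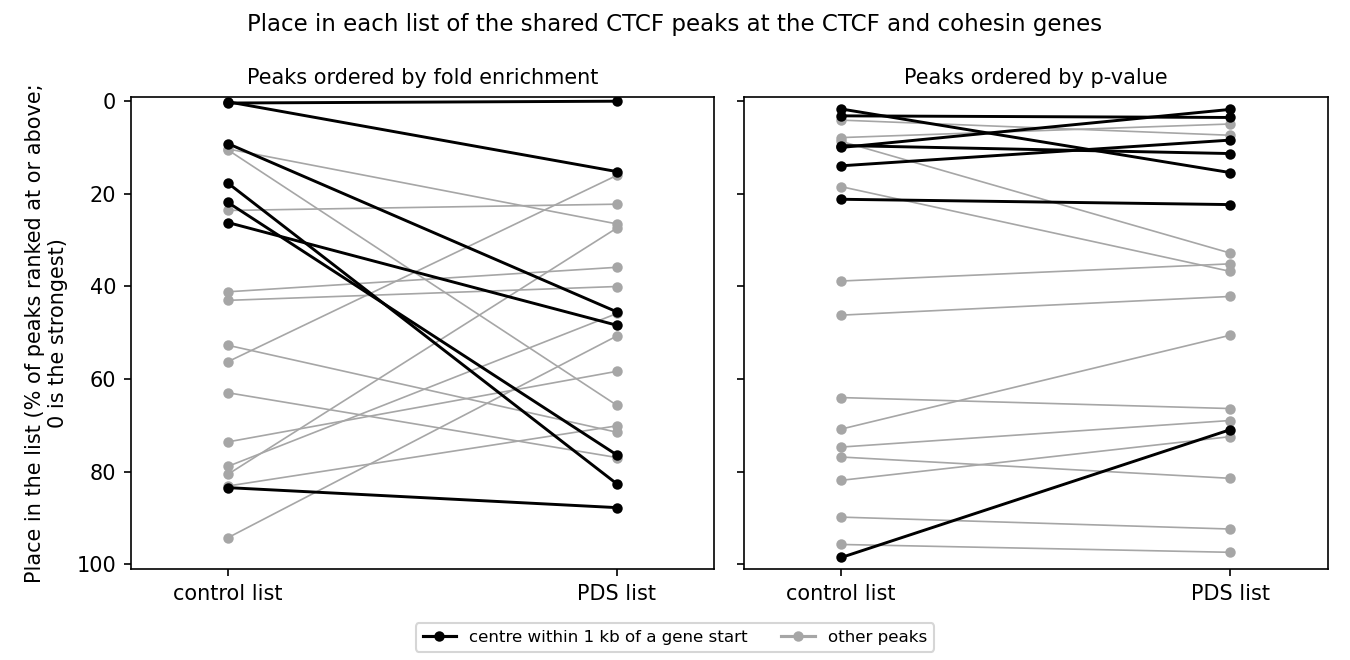
Place of the 20 shared peaks in the control and PDS lists, with peaks ordered by fold enrichment (left) or by p-value (right). The y axis is the percentage of peaks of the list ranked at or above the peak, with the strongest at the top, lines join the 2 peaks of a pair, and black marks the 7 pairs centred within 1 kb of a gene start. By fold 6 of the 7 black lines descend, and by p-value 4 of the 7 do.

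Peaks at the starts had more CpG than those elsewhere, although the CARMIL2 peaks came close. The 8 control peaks centred within 1 kb of a start had a median GC content of 73.1% and a median ratio of observed to expected CpG of 0.989, and the 24 other control peaks had 45.6% and 0.194. In PDS the medians were 71.9% and 1.00 for the 7 start peaks and 47% and 0.207 for the 15 others. Over the whole control list, the 4000 peaks within 1 kb of a protein-coding gene start had medians of 65.6% and 0.779 and all other peaks medians of 49.6% and 0.256. The ranges of the CpG ratio did not overlap at these genes, which is a description of few peaks. Over all control peaks the ratio ran from 0 to 2.67, and the ranges of start and other peaks were not taken over the lists. The start peaks lay between 0.891 and 1.15 and the others between 0 and 0.759 in control, and in PDS the start peaks lay between 0.894 and 1.14 and the others between 0 and 0.857. The highest of the others were the peaks of CARMIL2, downstream of CTCF.

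**Figure D5:**
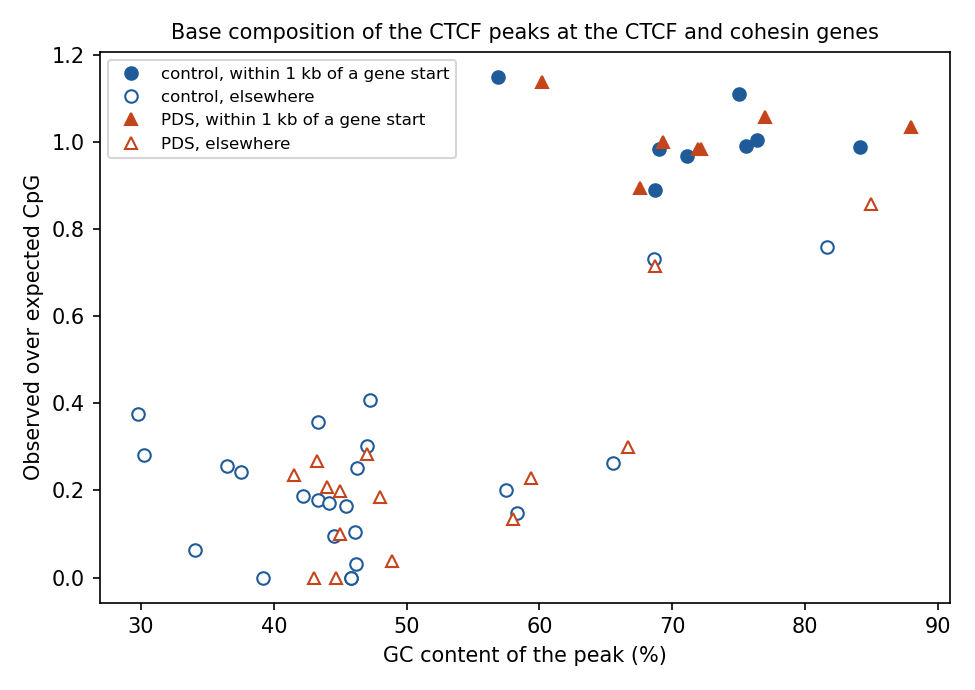
Base composition of the CTCF peaks at the 10 genes. The x axis is the GC content of the peak in percent and the y axis the ratio of observed to expected CpG. Circles are control and triangles PDS peaks, and filled symbols are peaks centred within 1 kb of the start of 1 of the 10 genes. Filled symbols all lie above 0.89 on the y axis and open symbols all below it.

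G4 motifs were about as frequent as in the lists as a whole. Of the 32 control peaks 6 overlapped a motif, or 18.8% (8.89% to 35.3%), and 5 held a whole motif, against 16.0% of all control peaks. Of the 22 PDS peaks 5 overlapped one, each in full, or 22.7% (10.1% to 43.4%), against 17.1% of all PDS peaks. All of the peaks with a motif were shared, and they lay at the starts of CTCF, STAG2, PDS5A and PDS5B and downstream of CTCF. Among the peaks within 1 kb of the start of 1 of the 10 genes, 4 of 8 in control and 4 of 7 in PDS held a motif. Of all peaks this close to any protein-coding gene start, 37.9% and 36.1% did. Each of the 5 PDS peaks with a motif had a control counterpart with one, and the share over all pairs was not counted. At RAD21L1, a germline paralogue outside the 10 genes, the start peak held 0 motifs in control and 1 in PDS.

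The CTCF consensus was found in 4 of the 32 control peaks, or 12.5% (4.97% to 28.1%), against 17.5% of all control peaks. In PDS it was found in 4 of 22, or 18.2% (7.31% to 38.5%), against 14.8%. With 1 mismatch allowed, 25 control and 15 PDS peaks had a site, or 78.1% and 68.2%, against 55.4% and 47.7% of the lists. No peak at these genes held both an exact consensus match and a G4 motif. The share of all peaks that hold both was not counted, so this is a description of few peaks.

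Other genes of the pathway gave a comparison list. Among 8 regulators of cohesin, 3 had a peak within 1 kb of the start in each list, namely ESPL1, which encodes the protease separase, ESCO1, an acetyltransferase of SMC3, and MAU2, the partner of NIPBL. The share over all protein-coding genes was 22.2% in control and 20.9% in PDS. The ESCO1 start peak had a fold of 119.2 (rank 107) in control and 19.4 (rank 12022) in PDS. At ESPL1 the folds were 50.9 (rank 3679) and 21.1 (rank 9711), and at MAU2 they were 11.3 (rank 29852) and 7.07 (rank 31675). The gene start was covered in both lists at ESCO1 and MAU2, 2 of the 8, against 9.10% and 8.08% of protein-coding genes. SGO1, PTTG1, ESCO2, CDCA5 and HDAC8 had no peak within 1 kb of the start. Of 5 meiotic and germline paralogues, RAD21L1 and CTCFL had a peak within 1 kb of the start in both lists, and SMC1B had no peak in the gene or within 20 kb. With lists this short, these counts are a description. CTCFL, a testis paralogue of CTCF, had 2 peaks within 1 kb of the start in each list. The one with the higher fold stood at 45.3 (rank 5103) in control, where it overlapped 8 G4 motifs, and at 14.9 (rank 20379) in PDS, where it overlapped 9.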

How the data were processed

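The 7 ChIP-seq samples of K562 cells formed 4 groups. The authors aligned reads to hg19 with Bowtie2 2.2.3, filtered them with SAMtools and called peaks with PePr. The labels name 1 list for all CTCF and IgG samples of a condition, from which joint calling on the replicates over IgG was inferred. The submitters' processing notes also name deepTools 2.0. The fold enrichment (a ratio over IgG) and the p-value of each peak were deposited by the authors and were used here to rank peaks within a list. In each list p-values reached 1.00e-05 at most, below the cutoff that the methods name, so sites weaker than this are in neither list. The deposited score column was not used.

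Genes came from GENCODE 44 mapped to GRCh37. An overlap of 1 bp or more made peaks shared. Sequences came from GRCh37, and 24 peaks of each list on sequences outside it were left out of motif shares. Start and end positions advanced in steps of 60 bp in control and 50 bp in PDS, which limits the precision of positions. The genes, lists and alternatives were chosen with earlier results of these data known. Genes were named by listing all members and the pathway lists. Motif and overlap searches were tested on simulated data, and all 200 planted G4 motifs and 200 planted consensus sites were found. Computation used Python 3.11.15, numpy 2.4.6, pandas 2.3.3, scipy 1.17.1 and matplotlib 3.10.9.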

Additional observations from a re-analysis of the deposited data

How the results depend on the processing

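Of 48 alternative values, 34 were counted as unchanged and 14 moved. A share or median rank counted as unchanged when it lay inside the interval of the main value, so some still differed. The G4 motif share of control peaks was 31.2% in a window of 1 kb at the peak centre, against 18.8%. That of PDS peaks was 36.4% with loops of 1 to 12 nt, against 22.7%. A region of 5 kb on either side, with 22 control peaks against 32, was also counted as unchanged. Counts of peaks followed the region taken. The gene alone gave 19 control and 13 PDS peaks, 50 kb on either side gave 42 control and 37 PDS peaks, and restriction to the stronger 50% of each list by p-value gave 13 and 12. When only those stronger peaks of both lists were overlapped, 92.3% of control and 100% of PDS peaks were shared, against 82.9% and 83.5% over the lists. The control share was then above its list value, whereas the main share of 62.5% was below the list value of 78.0%. With runs of at least 2 G, 68.8% of control and 77.3% of PDS peaks held a motif, and in a window of 1 kb at the peak centre 45.5% of PDS peaks did. With 1 mismatch the consensus was in 78.1% of control and 68.2% of PDS peaks, against 55.4% and 47.7% of the lists. The control share was then above its list value, whereas the exact consensus, at 12.5% against 17.5%, was below it. A PDS peak covered a start at 5 genes when any transcript was accepted and lay within 1 kb at 6. The canonical transcript in place of the gene, an alternative chosen after seeing the data, left 27 control and 18 PDS peaks, and all of the lost peaks were at STAG2. The depth of the samples is unknown, so a peak called in 1 list may be present below the threshold in the other. No paired analysis was possible because the lists hold 1 pooled value per peak and condition.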

Other observations

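Genes of the related complexes condensin and SMC5/6 and of proteins that act with CTCF were searched in the same way. Of 10 condensin and SMC5/6 genes, NCAPD2, a condensin subunit, had a peak within 1 kb of the start in both lists, with a fold of 25.6 (rank 17584) in control and 8.98 (rank 29504) in PDS. NCAPG2 had 2 in control and none in PDS, and the one with the higher fold stood at 19.1 (rank 24148). These counts of 2 genes in control and 1 in PDS of 10 compare with 22.2% and 20.9% of all protein-coding genes. None of the 10 had a peak over the gene start, against 9.10% and 8.08%, and 8 in control and 7 in PDS had a peak in the gene or within 20 kb, against 77.2% and 73.6%. NCAPH and SMC2 had none in either list. All 3 of ZNF143, YY1 and MAZ had peaks in the gene or within 20 kb in both lists and none within 1 kb of the start, counts to be read beside the same shares.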
